A study of Mus musculus with 6 samples.

Results

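Microglia and macrophage genes are the 32 genes of a fixed list of symbols, found by gene name among the 55450 genes of a deposited expression table from mouse retina. All 32 were present, each as 1 row. The tissue came from 3 libraries named Myrf-kd, described by the submitters as Myrf +/− mice, and 3 wild-type (WT) libraries, all C57BL/6 at 8 weeks of age. Myrf encodes a membrane-bound transcription factor best known from oligodendrocytes. The labels do not say what change the Myrf allele carries or that each library is a separate animal, so the p-values below reflect spread among libraries, which may in part be technical. The retina was sequenced whole, and fewer cells of a type and less RNA per cell cannot be told apart.

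Microglia are the resident macrophages of the retina. They sit mainly in the synaptic layers, survey neurons with motile processes, clear debris and prune synapses, and depend on the growth factor receptor encoded by Csf1r. In a resting state they express a homeostatic set of receptors such as P2ry12 and Tmem119, and under stress they can raise complement, lysosomal and antigen-presenting genes. The transcription factors PU.1, encoded by Spi1, and IRF8 set up much of this program.

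The libraries held 50695091 to 70298511 units of estimated count, at about 4 units per sequenced fragment. Markers of rods summed to at least 39222 CPM (the share of the units of a library, scaled by TMM factors) in every library, so retinal tissue was present throughout. That sum was 39222 to 42742 CPM in Myrf-kd against 44234 to 61380 CPM in WT, without overlap. Of the 10 rod genes, all tested, 2 had higher and 8 lower estimates in Myrf-kd by edgeR (median log2 fold change −0.05). None of them passed, and 1 had an unadjusted p under 0.05, where 7.47% of all genes tested did. The sum thus differed more than the typical rod gene, and the number of rods was not tested. Myrf was at 0.279, 0.382 and 0.351 FPKM in Myrf-kd 1, 2 and 3, against 0.359, 0.397 and 0.463 FPKM in WT 1, 2 and 3. FPKM scales fragments by transcript length and library size. The groups overlapped for Myrf (adjusted p = 0.795 by the quasi-likelihood test of edgeR, adjusted after Benjamini and Hochberg), so its level does not check the labels. Expression of Xist and Y-linked genes put Myrf-kd 3 and WT 3 as female and the remaining libraries as male. Myrf-kd 3 stood apart on the first principal component, at 34.1 against −16.3 to −0.872 in the other 5 libraries. Markers of the cornea, a tissue outside the retina, summed to 3.42 to 8.16 CPM in Myrf-kd against 16.9 to 24.6 CPM in WT. Of these 7 genes 3 were tested and 0 passed by edgeR. All 3 had lower estimates (median log2 fold change −2.23) and an unadjusted p under 0.05, against 7.47% of all genes tested. Among the 6 with a mean of at least 0.1 FPKM, 2 had higher and 4 lower estimates. Markers of pigment epithelium summed to 388 to 418 CPM in Myrf-kd against 431 to 524 CPM in WT, also without overlap. Of the 8 tested 0 passed, and 1 had an unadjusted p under 0.05. Lens markers were at 0.586, 0.189 and 62.8 CPM in Myrf-kd 1, 2 and 3, against 13.8 to 23.8 CPM in WT. Fibroblast and scleral matrix markers were at 183, 192 and 122 CPM in Myrf-kd 1, 2 and 3, against 181 to 216 CPM in WT, with overlap. All 7 of them had lower estimates in Myrf-kd among genes with a mean of at least 0.1 FPKM, and 0 passed by edgeR. With sex as a covariate 0 members passed by edgeR. The part of these tissues in the values below was not tested.

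Promoters are shown for the tested members, and for Cd68, in which a letter pattern of PU.1 or of PU.1 with IRF was found, since Spi1 and Irf8 are themselves on the list. Each runs from 250 bases before the start site to 50 bases after it, 5′ to 3′ in the direction of transcription, from RefSeq (GRCm38.p6). Capitals mark the letters GAGGAA, the core of many PU.1 sites, or GGAA and GAAA with 2 bases between them, a composite of PU.1 and IRF, on either strand (GAGGAA reads TTCCTC on the other). Ctss lies at chr3:95526536-95526835 on the plus strand, C1qb at chr4:136886151-136886450 on the minus strand, C1qc at chr4:136892865-136893164 on the minus strand and Cd68 at chr11:69666121-69666420 on the minus strand.
Ctss: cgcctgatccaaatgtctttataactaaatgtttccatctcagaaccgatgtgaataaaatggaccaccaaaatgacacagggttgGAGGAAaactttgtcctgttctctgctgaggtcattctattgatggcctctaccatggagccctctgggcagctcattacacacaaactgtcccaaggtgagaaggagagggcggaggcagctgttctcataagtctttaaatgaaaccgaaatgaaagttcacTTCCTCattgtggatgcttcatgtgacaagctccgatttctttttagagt
C1qb: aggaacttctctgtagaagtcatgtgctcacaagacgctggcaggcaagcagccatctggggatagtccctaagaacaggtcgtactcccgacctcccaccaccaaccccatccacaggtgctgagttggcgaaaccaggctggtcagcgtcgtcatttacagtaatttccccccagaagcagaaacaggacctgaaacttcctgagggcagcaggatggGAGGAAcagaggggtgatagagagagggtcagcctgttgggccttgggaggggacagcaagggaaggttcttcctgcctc
C1qc: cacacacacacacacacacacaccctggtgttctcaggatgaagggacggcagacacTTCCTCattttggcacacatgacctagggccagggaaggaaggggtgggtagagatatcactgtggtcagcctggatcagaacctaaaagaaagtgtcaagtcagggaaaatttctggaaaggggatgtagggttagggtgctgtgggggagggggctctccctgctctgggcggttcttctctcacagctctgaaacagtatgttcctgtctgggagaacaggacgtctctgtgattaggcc
Cd68: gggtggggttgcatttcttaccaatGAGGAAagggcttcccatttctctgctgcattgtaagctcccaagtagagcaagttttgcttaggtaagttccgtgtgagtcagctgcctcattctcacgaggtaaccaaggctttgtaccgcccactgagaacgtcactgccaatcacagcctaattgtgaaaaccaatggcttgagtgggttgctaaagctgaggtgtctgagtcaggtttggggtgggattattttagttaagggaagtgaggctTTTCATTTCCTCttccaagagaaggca

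Of the 32 members, 22 had an entry in the promoter table, with 25 promoters in all. GAGGAA was in 14 of these 25 promoters (56%), those of 13 genes, and in 28.3% of all 32851 promoters of the table. The longer PU.1 letters GAGGAAGT were in the promoters of Ctss, C1qc and Cd53, against 3.2% of all promoters, and every such match holds a GAGGAA. The Ctss match begins 2 bases before the start site and the C1qc match 195 bases before it. The composite was in the promoter of Cd68 alone among the members, against 2.72% of all promoters, and shares bases with a GAGGAA match there. These matches are a description of letters and not of bound sites.

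Microglia genes were present at low levels in every library, and none of the members that could be tested passed the test between Myrf-kd and WT retina. The median over the 32 members of the mean level was 0.397 FPKM, at the 46.8th percentile for the median member among the 31233 genes with any signal. Only 9 members reached a mean of 1 FPKM over the 6 libraries, the filter for the test, and 23 lay below it. The summed level of all 32 was 73.0, 62.3 and 61.3 CPM in Myrf-kd 1, 2 and 3, against 70.4, 67.4 and 63.8 CPM in WT 1, 2 and 3. The group means were 65.5 ± 6.48 CPM in Myrf-kd against 67.2 ± 3.32 CPM in WT (SD, n = 3 each), a ratio of 97.5%. That sum rested on 844 to 1184 fragments per library.

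Of the 9 tested members 0 passed at an adjusted p under 0.05 by edgeR's quasi-likelihood test, where 0.0439% of the 13673 genes tested did (6 genes). At an unadjusted p under 0.05 there were also 0 members, against 7.47% of all genes. DESeq2 called 0 of the 9 (0.388% of all genes), and limma on FPKM called 0. Estimates were higher in Myrf-kd for 5 members and lower for 4, with a median log2 fold change of 0.03 (0.00 over all genes tested). A second fit took all 21276 genes with a mean of at least 0.1 FPKM and so added 20 members. There 0 of 29 members passed (0.0235% of all genes), and 0 had an unadjusted p under 0.05 by edgeR (6.55% of all genes). In that fit 17 estimates were higher and 12 lower. Spi1, H2-Aa and Ptprc lay below both filters and are given by level only.

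The precision of these comparisons was modest. For the 9 members the median half-width of the 95% interval was 0.68 on the log2 scale, a factor of 1.61, and for the 20 lower members it was 0.95, a factor of 1.93. Between libraries of the same group, the variance of a member was a median of 2.09 times that of counting alone. The widths differed between members, and a missed threshold does not show that the levels were equal.

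**Figure D1:**
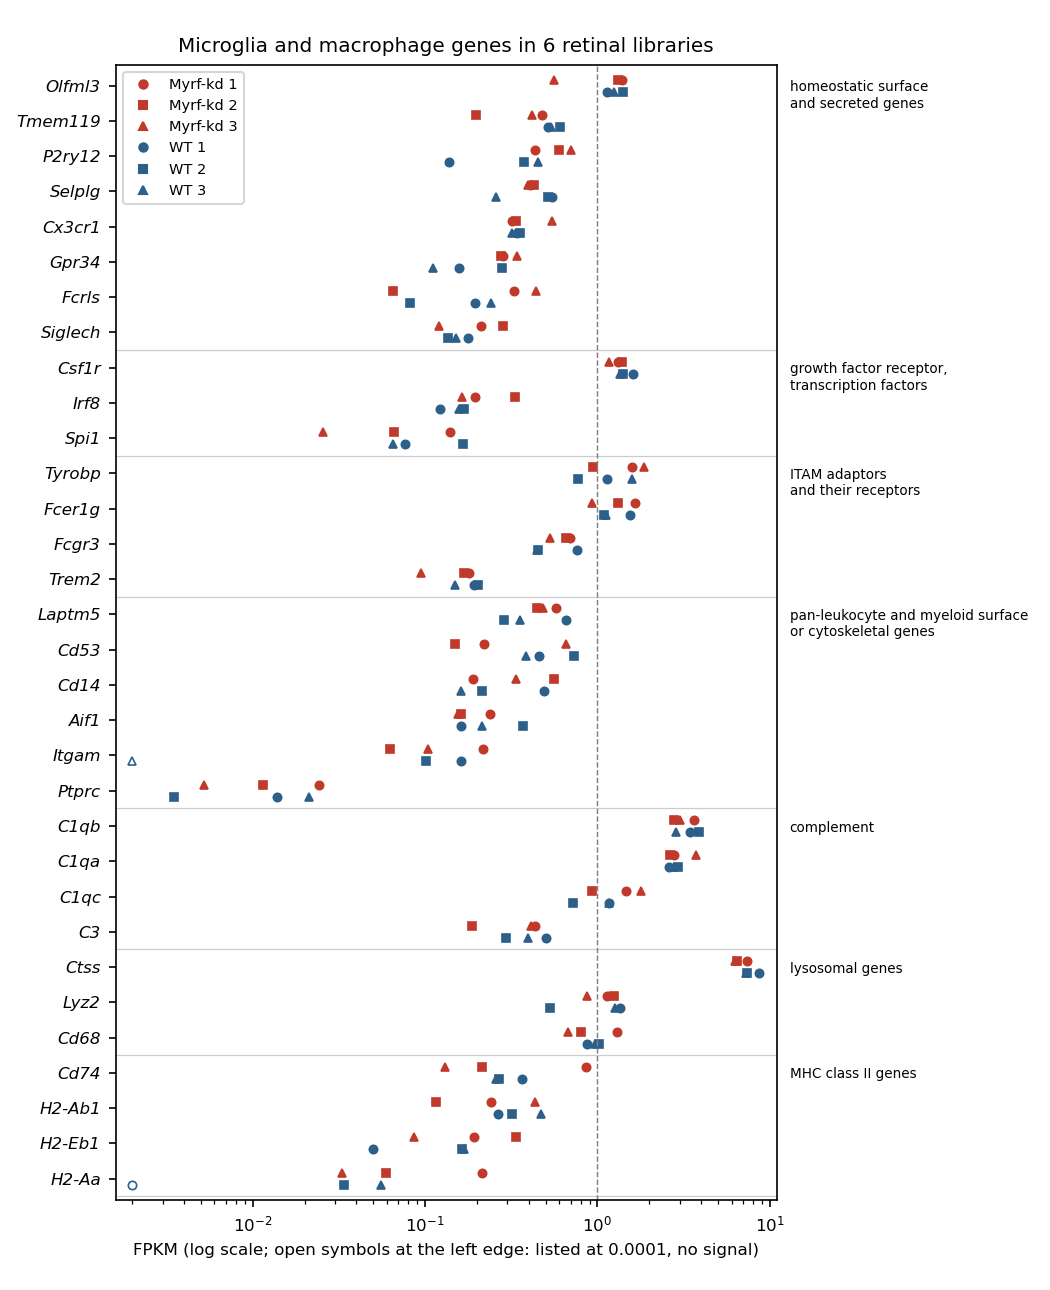
FPKM on a log axis for the 32 members in each of 6 libraries, grouped by role, with Myrf-kd in red above WT in blue and the symbol giving the replicate number. The dashed line marks 1 FPKM, and open symbols at the left edge are values listed at 0.0001. Ctss stood highest at 6.26 to 8.65 FPKM, and Myrf-kd and WT ranges overlapped for every member except Tmem119.

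Lysosomal genes held the most abundant member. Ctss (ENSMUSG00000038642, chr3:95526786-95556403, plus strand, GRCm38), which encodes the protease cathepsin S used in antigen processing, was at 7.33, 6.47 and 6.26 FPKM in Myrf-kd 1, 2 and 3 and 8.65, 7.39 and 7.28 FPKM in WT 1, 2 and 3. In CPM it averaged 10.4 ± 0.945 in Myrf-kd and 12.2 ± 1.04 in WT (SD, n = 3 each), and the groups overlapped through Myrf-kd 1 and WT 3 alone, both at 11.5 CPM. The fit put Myrf-kd at 85.1% of WT (95% interval 69.5% to 104%; log2 fold change −0.23 ± 0.12 SE), the smallest p of the 9 members (edgeR adjusted p = 0.697). Cd68, a glycoprotein of lysosomal membranes, was at 1.29, 0.805 and 0.67 FPKM in Myrf-kd and 0.871, 1.03 and 0.97 FPKM in WT. Myrf-kd thus held both the highest and the lowest values of Cd68. Lyz2, the macrophage lysozyme gene, was at 1.14, 1.24 and 0.868 FPKM in Myrf-kd and 1.36, 0.529 and 1.27 FPKM in WT, with WT 2 the lowest library. Its neighbour Lyz1 is close to it in sequence and was at most at 0.101 FPKM, so a share of reads may have been placed on either.

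The complement genes C1qa, C1qb and C1qc encode the A, B and C chains of C1q, the recognition protein of the classical pathway that tags synapses and debris. They lie side by side on chromosome 4, between 136880129 and 136898803, all on the minus strand. C1qb was at 3.64, 2.79 and 3.01 FPKM in Myrf-kd 1, 2 and 3, against 3.43, 3.88 and 2.84 FPKM in WT 1, 2 and 3. C1qa was at 2.76, 2.62 and 3.74 FPKM in Myrf-kd and 2.60, 2.93 and 2.79 FPKM in WT. C1qc was the lowest of the chains, at 1.46, 0.931 and 1.79 FPKM in Myrf-kd and 1.17, 0.725 and 1.17 FPKM in WT. The groups overlapped for each chain.

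Although the protein holds equal numbers of its chains, the listed level of C1qc was 0.402, 0.334 and 0.593 times that of C1qb in Myrf-kd 1, 2 and 3 and 0.341, 0.187 and 0.41 times in WT 1, 2 and 3. C1qa was at 0.759, 0.942 and 1.24 times C1qb in Myrf-kd and 0.759, 0.754 and 0.979 times in WT. Both ratios were highest in Myrf-kd 3, and among WT libraries in WT 3. Relative to WT, the fitted levels in Myrf-kd were 108% for C1qa (95% interval 78.3% to 150%), 91.7% for C1qb (66.5% to 126%) and 135% for C1qc (81.2% to 223%). Their adjusted p-values by edgeR were 0.888, 0.877 and 0.743. C3, the central component on which the complement pathways converge, lay below 1 FPKM. It was at 0.432, 0.188 and 0.41 FPKM in Myrf-kd and 0.5, 0.293 and 0.395 FPKM in WT (edgeR adjusted p = 0.921).

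Csf1r, the receptor for the survival factors CSF1 and IL-34, was at 1.31, 1.39 and 1.17 FPKM in Myrf-kd 1, 2 and 3 and 1.61, 1.40 and 1.35 FPKM in WT 1, 2 and 3. The fit put Myrf-kd at 87.5% of WT (95% interval 70.9% to 108%). The log2 fold change was −0.19 ± 0.13 SE (edgeR adjusted p = 0.73). In CPM, 9.09 in Myrf-kd 2 lay just above 9.05 in WT 3, and the other libraries of each group were on their own side. Csf1r shares 15.1% of its 5774 exonic bases with Hmgxb3 on the opposite strand, and reads of the 2 genes cannot be told apart if strand was not kept. Irf8 was at 0.196, 0.334 and 0.164 FPKM in Myrf-kd and 0.123, 0.168 and 0.158 FPKM in WT (edgeR adjusted p = 0.77). Spi1 was at 0.14, 0.0664 and 0.0255 FPKM in Myrf-kd and 0.0768, 0.165 and 0.0652 FPKM in WT, which rests on 1.5 to 7.25 fragments per library.

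**Figure D2:**
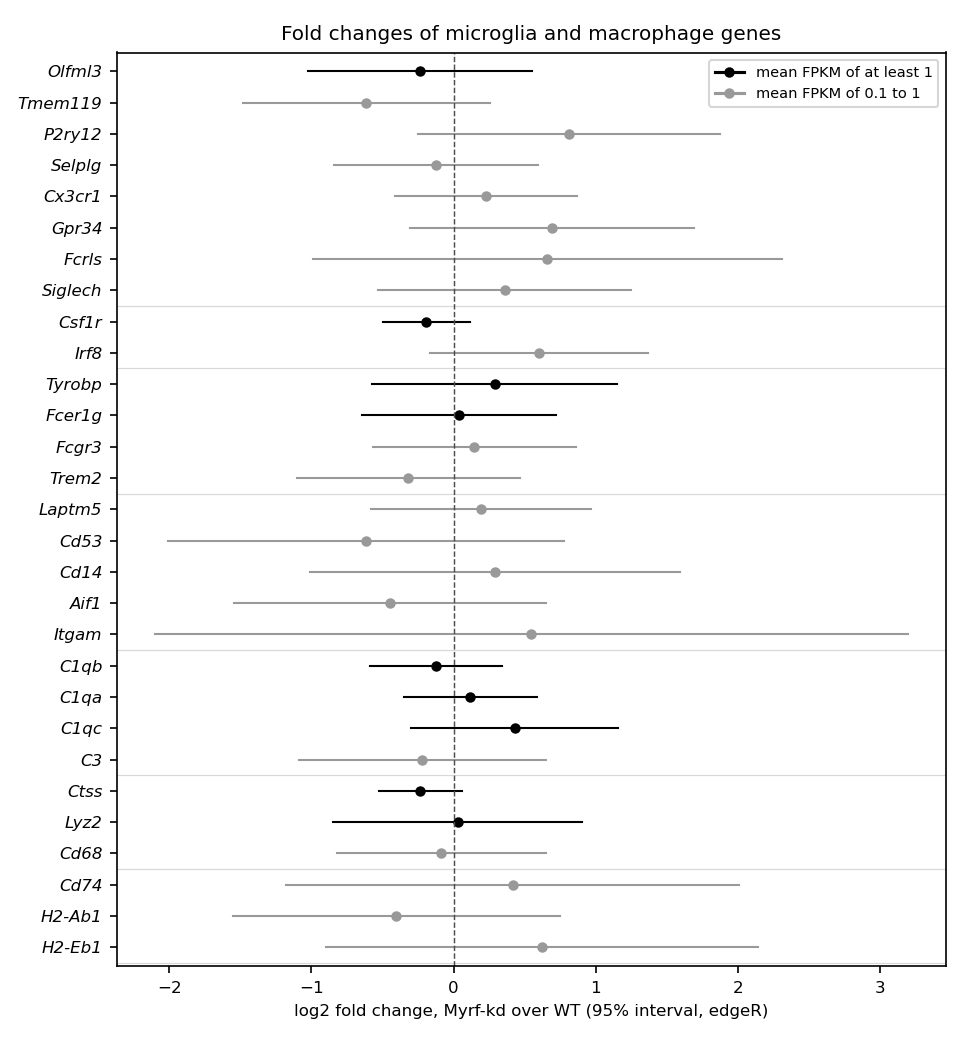
Log2 fold change of Myrf-kd over WT with its 95% interval by edgeR for 29 members, in black for the 9 with a mean of at least 1 FPKM and in grey for the 20 between 0.1 and 1 FPKM. Every interval spans 0, the narrowest being those of Ctss and Csf1r and the widest that of Itgam.

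Homeostatic genes, which mark resting microglia in brain and retina, had estimates in both directions. Of the 8 genes 5 had higher and 3 lower estimates in Myrf-kd, and 0 passed by edgeR. P2ry12, a receptor for ADP that steers processes to injury, was at 0.432, 0.6 and 0.699 FPKM in Myrf-kd 1, 2 and 3, against 0.138, 0.376 and 0.453 FPKM in WT 1, 2 and 3. WT 1 was the lowest library and the groups overlapped between WT 3 and Myrf-kd 1. The fit put Myrf-kd at 176% of WT (95% interval 84.1% to 367%; edgeR adjusted p = 0.77). Tmem119 (ENSMUSG00000054675, chr5:113793729-113800516, minus strand), a membrane protein used as a marker of resident microglia, ran the other way. It was at 0.478, 0.198 and 0.418 FPKM in Myrf-kd and 0.515, 0.605 and 0.537 FPKM in WT.

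Tmem119 was the 1 member of 32 whose groups did not overlap, where 13.4% of the genes of the second fit did not overlap and 6.42% did not overlap with Myrf-kd the lower group. The fit put Myrf-kd at 65.4% of WT (95% interval 35.8% to 119%; edgeR adjusted p = 0.772), on 8.25 to 25 fragments per library. Cx3cr1, the receptor for the neuronal chemokine fractalkine, was at 0.32, 0.337 and 0.542 FPKM in Myrf-kd and 0.339, 0.354 and 0.321 FPKM in WT, so that Myrf-kd 3 stood above the other 5 libraries. Gpr34, a receptor for lysophosphatidylserine, was at 0.275 to 0.343 FPKM in Myrf-kd and 0.112 to 0.28 FPKM in WT (edgeR adjusted p = 0.774). Siglech, a sialic acid-binding lectin gene, Fcrls, a mouse Fc receptor-like gene, and Selplg, which encodes a ligand of P-selectin, were at 0.0649 to 0.543 FPKM over the 6 libraries.

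Olfml3, which encodes a secreted olfactomedin-like protein, was at 1.38, 1.31 and 0.56 FPKM in Myrf-kd 1, 2 and 3 and 1.13, 1.42 and 1.24 FPKM in WT 1, 2 and 3. Myrf-kd 3 was thus far below the other 5 libraries, and the variance between libraries was 12.5 times that of counting alone, the highest value among the 32 members. The log2 fold change was −0.24 ± 0.33 SE (edgeR adjusted p = 0.858). Without Myrf-kd 3 it was 0.07, so its sign rested on that library.

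Immune receptors of this class signal through adaptors that carry an immunoreceptor tyrosine-based activation motif (ITAM). Tyrobp, the adaptor DAP12, was at 1.58, 0.939 and 1.86 FPKM in Myrf-kd 1, 2 and 3 and 1.13, 0.775 and 1.58 FPKM in WT 1, 2 and 3. Fcer1g, the common Fc receptor gamma chain, was at 1.66, 1.31 and 0.935 FPKM in Myrf-kd and 1.55, 1.09 and 1.12 FPKM in WT. Both adaptors overlapped between groups, with adjusted p-values of 0.842 for Tyrobp and 0.979 for Fcer1g by edgeR. The receptors that pair with them were lower in level than the adaptors. Trem2, a lipid-sensing receptor that uses DAP12, was at 0.0952 to 0.179 FPKM in Myrf-kd and 0.148 to 0.203 FPKM in WT. Fcgr3, a low-affinity receptor for IgG, was at 0.532 to 0.691 FPKM in Myrf-kd and 0.447 to 0.766 FPKM in WT. Its relatives Fcgr2b and Fcgr4 were at most at 0.125 and 0.204 FPKM. Their sequences were not compared and sharing of reads was not tested, so its value is uncertain to that extent.

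Pan-leukocyte and myeloid genes ranged widely in level. Ptprc, the leukocyte phosphatase CD45, was at 0.00522 to 0.0242 FPKM in Myrf-kd and 0.00349 to 0.0212 FPKM in WT, the lowest mean level of the list. Cd53, a leukocyte tetraspanin, was at 0.219, 0.149 and 0.66 FPKM in Myrf-kd 1, 2 and 3 and 0.461, 0.729 and 0.384 FPKM in WT 1, 2 and 3, so Myrf-kd 3 lay apart from the other libraries of its group. Laptm5, a lysosomal membrane protein of leukocytes, Aif1, which encodes the microglial marker IBA1, and Cd14, a co-receptor for lipopolysaccharide, were at 0.156 to 0.658 FPKM over the 6 libraries. None of these passed by edgeR (adjusted p = 0.846 for Cd53, 0.923 for Laptm5, 0.853 for Aif1 and 0.936 for Cd14).

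Itgam, the integrin chain CD11b, had values of 0.217, 0.0624 and 0.105 FPKM in Myrf-kd 1, 2 and 3 and of 0.162, 0.101 and 0.0001 FPKM in WT 1, 2 and 3, the last being the value for no signal. The predicted gene Gm49368 shares 68.7% of the exonic bases of Itgam on the same strand and held 72 units in WT 3, where Itgam held 0. The units of both together were 169, 61 and 108 in Myrf-kd 1, 2 and 3 and 149, 52 and 72 in WT 1, 2 and 3. How the reads were split between them is uncertain, and so is the Itgam value.

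Genes of MHC class II, which present antigen on activated microglia, perivascular macrophages and dendritic cells, were low and uneven between libraries. Cd74, the invariant chain that escorts class II molecules, was at 0.854, 0.213 and 0.131 FPKM in Myrf-kd 1, 2 and 3, against 0.366, 0.267 and 0.258 FPKM in WT 1, 2 and 3. H2-Aa, a class II alpha chain, was at 0.214, 0.059 and 0.0331 FPKM in Myrf-kd and 0.0001, 0.0337 and 0.0555 FPKM in WT. Myrf-kd 1 was the highest library for both genes and the other Myrf-kd libraries were not. H2-Ab1 and H2-Eb1, class II beta chains, were highest elsewhere, H2-Ab1 in WT 3 at 0.468 FPKM and H2-Eb1 in Myrf-kd 2 at 0.338 FPKM. The summed class II level was 3.85, 1.80 and 1.95 CPM for Myrf-kd 1, 2 and 3, against 1.66, 2.10 and 2.56 CPM in WT 1, 2 and 3. Without Myrf-kd 1 the log2 fold change of Cd74, 0.42 ± 0.68 SE with all libraries, was −0.78, and neither passed by edgeR (adjusted p = 0.918 with all libraries).

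**Figure D3:**
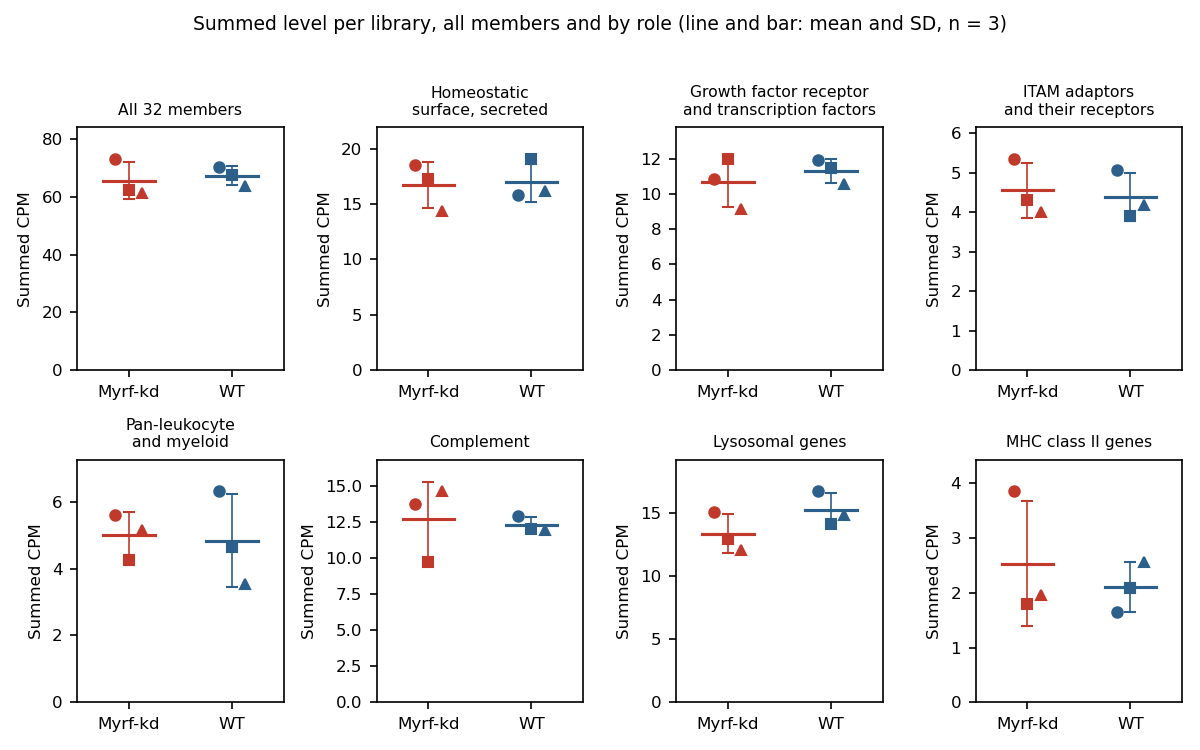
Summed CPM per library for all 32 members and for the 7 role groups, with Myrf-kd on the left and WT on the right of each panel. Circles, squares and triangles are replicates 1, 2 and 3, and the line and bar are the mean and SD (n = 3). The groups overlapped in every panel, and the class II panel shows Myrf-kd 1 at 3.85 CPM above the other 5 libraries.

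Summed by role, all 7 groups of members overlapped between genotypes. Homeostatic genes averaged 16.7 ± 2.11 CPM in Myrf-kd against 17 ± 1.79 CPM in WT, and complement genes 12.7 ± 2.61 CPM in Myrf-kd against 12.3 ± 0.539 CPM in WT (SD, n = 3 each). Lysosomal genes averaged 13.4 ± 1.57 CPM in Myrf-kd against 15.3 ± 1.33 CPM in WT, most of it Ctss. Across the 32 members, Myrf-kd 1, 2 and 3 were the highest library for 6, 4 and 7 genes, and WT 1, 2 and 3 for 7, 7 and 1. The lowest library was Myrf-kd 1, 2 and 3 for 1, 7 and 9 genes, and WT 1, 2 and 3 for 5 each.

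Ligands that neurons and glia offer to microglia were examined next. Of the 9 genes on that list 6 were tested and 0 passed, with 0 at an unadjusted p under 0.05 by edgeR. Cx3cl1, the neuronal chemokine that binds Cx3cr1, was at 18.5, 18.2 and 21.9 FPKM in Myrf-kd 1, 2 and 3, against 2.30, 2.53 and 16.5 FPKM in WT 1, 2 and 3. WT 1 and WT 2 were thus far below the other 4 libraries, and WT 3 was close to Myrf-kd. WT 3 still lay below each Myrf-kd library, so the groups did not overlap. Among all tested genes, 14.6% did not overlap in CPM. The log2 fold change was 1.43 ± 0.75 SE and did not pass (edgeR adjusted p = 0.697). Without WT 3 it was 3.00 (edgeR adjusted p = 0.0102), and without replicate 3 of both groups 2.90 (adjusted p = 0.0183), so the call turned on WT 3. Cx3cl1 was followed in these fits after the values were seen.

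Cx3cl1 accounted for 24.8% to 26.1% of the summed ligand level in Myrf-kd and 4.0%, 4.24% and 30.7% in WT 1, 2 and 3. The ligands summed to 333, 327 and 379 CPM for Myrf-kd and 258, 276 and 245 CPM in WT, without overlap. With Cx3cl1 left out, these became 249, 246 and 280 CPM for Myrf-kd and 248, 264 and 170 CPM in WT, and the groups overlapped. Cd47, which encodes a signal that restrains engulfment, was at 16.0, 16.3 and 16.4 FPKM in Myrf-kd and 16.4, 17 and 6.36 FPKM in WT 1, 2 and 3, with WT 3 alone low (edgeR adjusted p = 0.836). WT 3 was therefore the library that lay apart for both genes, in opposite senses within WT. The counts and FPKM values are the authors' estimates, and how reads were assigned in these libraries was not tested, for Cx3cl1 and Cd47 as for Tgfbr1 below.

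Of the ligands of Csf1r, Il34 stood above Csf1 in every library. Il34 was at 2.35, 2.28 and 2.17 FPKM in Myrf-kd and 2.82, 2.08 and 1.92 FPKM in WT. Csf1 was at 0.745, 0.754 and 0.833 FPKM in Myrf-kd and 0.908, 0.932 and 0.959 FPKM in WT, and its groups did not overlap (edgeR adjusted p = 0.77 in the second fit). Of all genes in that fit, 13.4% did not overlap in CPM, and 6.42% did not overlap with Myrf-kd the lower group. Csf1 and the following pair of genes are named because of their values. Tgfbr1, a receptor of the TGF-beta that maintains microglia but is made by many cells, was at 5.36, 6.03 and 6.09 FPKM in Myrf-kd and 1.98, 5.05 and 2.71 FPKM in WT. Mertk, a phagocytic receptor also of Mueller glia and pigment epithelium, was at 3.23, 3.40 and 2.76 FPKM in Myrf-kd and 4.29, 4.31 and 3.68 FPKM in WT. Groups did not overlap for either, and neither passed (edgeR adjusted p = 0.666 for both), beside 14.6% of tested genes without overlap.

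**Figure D4:**
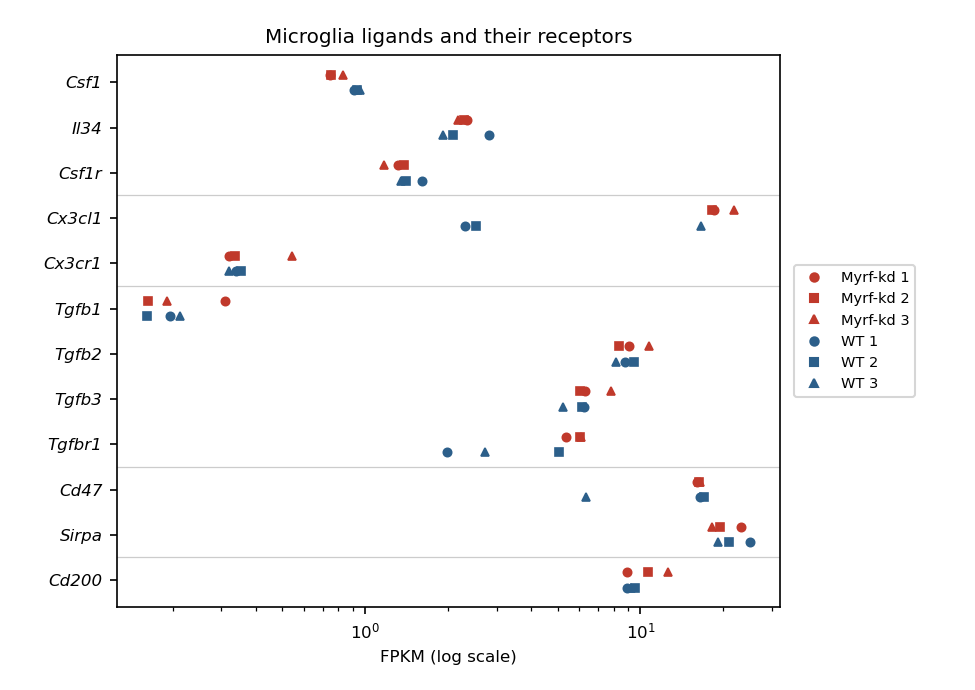
FPKM on a log axis in each of 6 libraries for microglia ligands and their receptors, with Myrf-kd in red above WT in blue and the symbol giving the replicate number. Cx3cl1 is at 2.30 and 2.53 FPKM in WT 1 and WT 2 and at 16.5 FPKM or more elsewhere, while its receptor Cx3cr1 is at 0.32 to 0.542 FPKM in all 6.

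Other microglia-enriched genes, 15 in all, had 6 tested members with 3 higher and 3 lower estimates, 0 past the test and 2 of the 6 at an unadjusted p under 0.05, Tgfbr1 and Mertk, where 7.47% of all genes tested were. The most abundant were Sparc, at 210 ± 12.1 CPM in Myrf-kd against 205 ± 14.7 CPM in WT, and Sirpa, at 114 ± 15.5 CPM in Myrf-kd against 123 ± 15.8 CPM in WT (SD, n = 3 each). Both are also made by other retinal cells.

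Of 18 genes that rise in disease-associated microglia in mouse, 12 were tested, with 1 higher and 11 lower estimates and a median log2 fold change of −0.09. None passed, and 1 of the 12 had an unadjusted p under 0.05 by edgeR, a share near the 7.47% of all genes tested. Apoe, a lipid carrier, was at 229 ± 63.0 CPM in Myrf-kd against 240.0 ± 12.9 CPM in WT, and the protease gene Ctsd at 350.5 ± 7.60 CPM in Myrf-kd against 369 ± 12.2 CPM in WT (SD, n = 3 each). Both are also expressed by other retinal cells. Among genes of narrower expression in activated microglia, named with their values known, Clec7a was at most at 0.117 FPKM, Cst7 at most at 0.0983 FPKM and Itgax at most at 0.0669 FPKM in any library.

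The remaining lists gave 0 calls by edgeR over all genes. Other complement genes had 7 of 18 tested, 5 higher and 2 lower, led by Clu, which encodes the chaperone clusterin, at 518 ± 57.0 CPM in Myrf-kd against 502 ± 12.1 CPM in WT (SD, n = 3 each). Of 11 ITAM signalling genes 0 reached the filter. The highest was the phosphatase gene Inpp5d, at 0.251 to 0.745 FPKM in Myrf-kd and 0.782 to 0.882 FPKM in WT. These ranges did not overlap, where 13.4% of the genes of the second fit did not overlap in CPM. In that fit the list had 2 higher and 3 lower estimates, and 0 passed by edgeR. Of 7 other class II pathway genes 1 reached the filter, Ifi30, at 4.39 ± 0.876 CPM in Myrf-kd against 5.12 ± 0.114 CPM in WT. Among 16 inflammatory cytokine and chemokine genes 2 were tested, Il18 and Cxcl16, and 10 had 0 units in at least 1 library. Tnf, Il1b and Il6 held at most 2 fragments in any library.

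Markers of other blood-borne and perivascular cells differed in level between lists, and 0 genes passed by edgeR in each of the lists below. Monocyte and neutrophil markers, 11 genes, summed to 0.647 to 1.33 CPM in Myrf-kd and 0.564 to 1.29 CPM in WT, with 9 of 11 at 0 units in at least 1 library. Lymphocyte markers, 11 genes, summed to 1.56 to 3.09 CPM in Myrf-kd and 1.98 to 2.46 CPM in WT, with 5 of 11 at 0 in all libraries. The 10 markers of perivascular and tissue macrophages summed to 23.6, 26.9 and 35.8 CPM for Myrf-kd 1, 2 and 3, against 24.2, 25.3 and 23.4 CPM for WT 1, 2 and 3, so Myrf-kd 3 was the highest library and the groups overlapped. Lyve1 and Maf, the 2 tested, both had higher estimates (median log2 fold change 0.22) and made up most of the sum. Maf, a transcription factor gene also used outside macrophages, was at 13.3 ± 2.87 CPM in Myrf-kd against 11.5 ± 0.677 CPM in WT (SD, n = 3 each). Of the narrower markers, Mrc1, Cd163, Pf4 and F13a1 were each at most at 0.0743 FPKM. Cd163 held 11, 7 and 8 units in Myrf-kd 1, 2 and 3, at most 2.75 fragments, and 0 in each WT library. Mrc1 held 36, 12 and 13 units in Myrf-kd 1, 2 and 3 and 12, 0 and 3 in WT 1, 2 and 3. Cd163 and Mrc1 are given by library with their values known. They lay below both filters and were in neither fit, and no share over all genes was computed at such levels. The other low markers are not given by library, so Cd163 and Mrc1 do not stand for the list. Of the markers in the second fit, 4 had higher and 1 lower estimates in Myrf-kd. Among all genes of that fit, 13.4% had groups that did not overlap. Lyve1, which lymphatic and other cells also express, was at 11.1 ± 4.10 CPM in Myrf-kd against 9.48 ± 0.799 CPM in WT (SD, n = 3 each). Dendritic cell markers, 7 genes, summed to 12.3 to 15.3 CPM for Myrf-kd and 13.1 to 14.3 CPM for WT. Of these, 4 were at 0 in at least 1 library, among them 2 at 0 in all libraries. None reached a mean of 1 FPKM, and which cells gave the sum was not tested. Erythroid markers, 7 genes, summed to 46.8 to 52.7 CPM for Myrf-kd and 36.7 to 89.8 CPM for WT, and the 4 tested had lower estimates in Myrf-kd. Reactive gliosis genes, a sign of stressed Mueller glia and astrocytes, had 7 of 8 tested, 3 higher and 4 lower. Their sum was 158 ± 34.5 CPM in Myrf-kd against 185 ± 13.2 CPM in WT (SD, n = 3 each), with overlap. At an unadjusted p under 0.05 there were 2 of the 7, Stat3 and Cebpd (Cebpd is named for its value), where 7.47% of all genes tested were, and both had an adjusted p of 0.666 by edgeR. Stat3, a transcription factor gene of cytokine signalling, was at 89.4 ± 21.0 CPM in Myrf-kd against 122 ± 6.62 CPM in WT. Gfap, the intermediate filament gene of astrocytes, was at 19.5 ± 1.92 CPM in Myrf-kd against 19.7 ± 3.04 CPM in WT.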

How the data were processed

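Per the file headers, the authors deposited a table of 55450 genes with an FPKM value and a count for each of 6 libraries, with 0.0001 FPKM for no signal. The deposited counts were read as estimated counts, since they are whole numbers in which 4 units is the most frequent low value, taken as 1 fragment. Rounding changed none. The submitters' processing notes name GRCm38, Bowtie 0.12.2, HISAT2 2.0 and StringTie 1.3.0 without their roles. Strandedness is not given there. Per the labels, Trizol was used to extract total RNA with a RIN above 7.

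Groups and replicate numbers came from the sample titles. Genes with a mean of at least 1 FPKM over the 6 libraries were tested with edgeR 4.0.16 (its quasi-likelihood test with TMM factors and a single term for genotype, two-sided, threshold 0.05, Benjamini-Hochberg adjustment over all genes tested). A second fit used a mean of at least 0.1 FPKM. The SE is the size of the log2 fold change over the root of the F statistic. CPM values use TMM-scaled totals, and counting error was taken on fragments. Every pair of libraries differed by more than counting noise (chi-square over its degrees of freedom at least 18.5). The edgeR code was also run on simulated counts. These did not copy the scaling of the deposited counts or the libraries that lay apart. That run therefore bears on the code and not on how well the fit suits these data.

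Alternatives were other filters and scalings, counts divided by 4, DESeq2 1.42.0, limma 3.58.1 on log2(FPKM + 1) or log2(FPKM + 0.1), a replicate block, sex as a covariate and the omission of libraries. The members and lists were chosen with earlier results of these data known. The genes named are Myrf, the 32 members, 1 or 2 of the most abundant genes of some other lists, and genes said in the text to be named for their values or as markers. Further genes, such as Il34, Lyz1 and Tnf, are named beside a member or a list. Several lists are given without a named gene. Of the promoter table, only letters were read. Exons were compared in GENCODE M21, which held all 32 members.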

Additional observations from a re-analysis of the deposited data

How the results depend on the processing

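Of the members tested 0 passed in each alternative run: by edgeR with no filter or a mean FPKM of at least 0.1 or 5, with median-of-ratios, upper quartile or no factors, with counts divided by 4, with the replicate block, with sex as a covariate and without each library, and by DESeq2 and limma. The summed level kept within 1 SD of its log2 ratio of −0.04, between −0.12 and 0.01 without each library in turn. The median log2 fold change of the 9 tested members, 0.03, lay between −0.18 and 0.072 without each library, −0.18 being the value without Myrf-kd 1. It was −0.22 with a mean FPKM of at least 5, where Ctss was the 1 member left. The count over all genes, 6, was 2 with that filter, 53 by DESeq2, 22 without replicate 3 in both groups and 9 to 16 without each library. The cause was not tested.

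Under a block for the replicate number 0 genes passed by edgeR (701 at an unadjusted p under 0.05) and no call of a member changed. Same-numbered libraries deviated together by correlations of −0.05, 0.02 and 0.10 over all tested genes, Myrf-kd 1 and 2 correlated best with another number, and the labels tie no number to an animal, so the block was not read as pairing. Depth limits the list: 17 of 32 members held under 10 fragments in at least 1 library.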
